A study of Mus musculus with 5 samples.

Results

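The guanylate binding proteins and immunity-related GTPases are interferon-induced enzymes that defend cells against microbes living inside them. The genes described here were Gbp2, Gbp3, Gbp6, Gbp7, Igtp, Irgm1, Irgm2 and Iigp1, taken from a named list of 8 and found by gene symbol among the probe sets that name a single gene. All 8 were on the array, with 12 probe sets between them, out of 18193 genes measured by the 34945 probe sets that name a single gene. Gene expression in CD4 T cells from BALB/c spleens was measured with Affymetrix mouse arrays. Each of the 5 groups had a single array: TOFA effector Th1 cells, Rap effector Th1 cells, memory Th1 cells, control effector Th1 cells and naive CD4 T cells. Per the labels, cells were cultured for 5 days with IL-2 at 15 ng/ml and IL-12 at 10 ng/ml. The labels attach this protocol to every sample, naive and memory cells included. TOFA blocks acetyl-CoA carboxylase, the enzyme that commits acetyl-CoA to fatty acid synthesis; the labels do not expand Rap and give no dose of either agent, and no mouse age.

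Interferon-gamma, encoded by Ifng, is the defining cytokine of Th1 cells. It acts through its receptor and the JAK kinases on gamma-activated sites (GAS) in promoters, and it switches on IRF1, a transcription factor that binds interferon response elements. Type I interferons use another receptor and act mainly on interferon response elements, and many GTPase genes answer to both kinds of interferon. Guanylate binding proteins and effector GTPases such as Iigp1 gather on the vacuoles of intracellular parasites and bacteria and break them open, while Irgm1, Irgm2 and Igtp are regulatory members that sit on the cell's own membranes and hold the effectors inactive there. In mice, Irgm1 is also needed for the survival of CD4 T cells exposed to interferon-gamma.

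All 8 GTPase genes had a higher signal in the TOFA effector array than in the control effector array, and all 8 had a higher signal in the Rap effector array than in the same control array, while Ifng was lower in each. The median difference over the 8 genes was 0.78 on the log2 scale (1.72-fold) for TOFA and 0.93 (1.91-fold) for Rap, against medians of 0.01 and 0.00 over all genes compared. Gbp6 was 3.72-fold higher in TOFA and 3.07-fold higher in Rap cells, and Iigp1 was 2.65-fold and 2.02-fold higher. Ifng was 1.78-fold lower in TOFA and 4.19-fold lower in Rap cells. Without replicate arrays there is no p-value, SD or SE between samples for any value, the number of arrays limits the precision, and "higher" and "lower" describe these 5 arrays. The only internal measure of error is how far the probe sets for one gene disagree. Pooled over all genes with several, its SD was 0.37 for TOFA and 0.38 for Rap against control on the log2 scale. This probe set SD does not measure variation between arrays or animals. Among the 4 members with more than 1 probe set, the largest gap was 0.11 for TOFA and 0.1 for Rap.

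Promoter sequence was available for 6 of the 8 genes and is shown because these genes were all higher in TOFA and Rap cells and interferon-activated factors bind known motifs. The genes without it, Gbp6 and Iigp1, were the only ones of the 8 past 2-fold against control, in TOFA and in Rap cells. The 300-base windows (250 bases before to 50 after each annotated gene start) came from RefSeq, build GRCm38.p6. They were searched on both strands for an IRF-type motif, GAAA and a second GAAA with any 2 bases between them, which is a pair of the half-sites bound by IRF proteins, and for TTCNNNGAA, the GAS form. The stretches below hold every match in each gene's window, with the matched bases in capitals, written 5′ to 3′ on the gene's strand; overlapping matches form a single run of capitals.
Gbp2 (chr3:142620594-142620628, plus strand): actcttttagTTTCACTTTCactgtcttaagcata
Gbp3 (chr3:142559989-142560029, plus strand): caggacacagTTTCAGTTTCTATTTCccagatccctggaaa
Gbp7 (chr3:142530220-142530307, plus strand): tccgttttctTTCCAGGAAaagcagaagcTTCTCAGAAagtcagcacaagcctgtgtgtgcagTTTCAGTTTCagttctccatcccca
Igtp (chr11:58199501-58199546, plus strand): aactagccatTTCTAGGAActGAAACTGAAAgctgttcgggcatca
Irgm1 (chr11:48871421-48871460, minus strand): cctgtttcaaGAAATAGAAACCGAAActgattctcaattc
Irgm2 (chr11:58214892-58214937, plus strand): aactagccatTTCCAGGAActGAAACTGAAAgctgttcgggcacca

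The IRF-type motif stood in the windows of all 6 genes, beside 3.99% of the 27025 genes in the table. It also stood in 6 of 10 other GBP and IRG genes with a sequence, in 11 of 18 type I interferon targets and in 2 of 11 interferon-gamma targets outside the GTPases. Among the 6 genes it lay on the gene's own strand in Igtp, Irgm1 and Irgm2 and on the other strand in Gbp2, Gbp3 and Gbp7, and in each gene it began between 30 and 64 bases before the start, with a further overlapping match in Gbp3 and in Irgm1. The GAS-type motif stood in 3 of the 6 windows (Gbp7, Igtp and Irgm2), beside 9.55% of all genes. In Igtp and Irgm2, which are neighbours in the genome, the GAS-type motif ended 2 bases before the IRF-type motif, and the same 2-base gap stood in Tgtp1 and Tgtp2, which encode related effector GTPases. Gbp7, Gbp3 and Gbp2 lie in one gene cluster with Gbp5 and Gbp2b. The Ifng window held no IRF-type match and 1 GAS-type match, 249 bases before its start. A match of letters is a description and not evidence of binding, and sequences for Gbp6 and Iigp1 were not used here. The genes were listed from families known to be interferon-induced, and any link of the motifs to the TOFA and Rap differences was not tested.

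**Figure D1:**
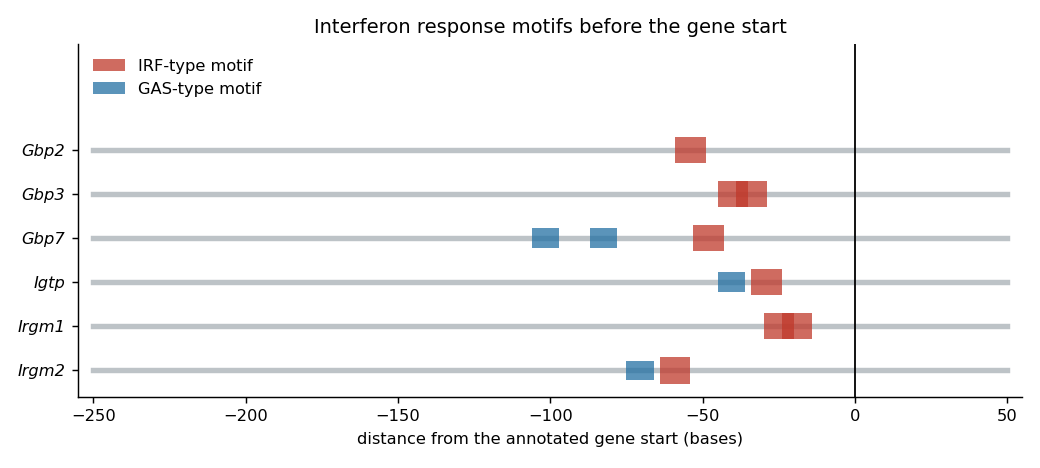
Position of the motif matches in the promoter windows of the 6 GTPase genes, as distance in bases from the annotated gene start (0, black line). Red boxes are IRF-type and blue boxes GAS-type matches; every gene has a red box within 64 bases of its start, and Igtp and Irgm2 have a blue box directly before it.

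Across the 5 arrays, every probe set of the 8 genes was well above the floor of 43.4 (the 40th percentile of all signals) on every array, with a lowest value of 1092.5, so no gene was kept only through the array where it was high. The highest array was TOFA for 4 genes (Gbp6, Igtp, Irgm1 and Iigp1) and Rap for the other 4 (Gbp2, Gbp3, Gbp7 and Irgm2). The lowest was control effector for 4, memory for 3 and naive for 1. Highest over lowest ran between 1.92-fold for Irgm2 and 3.72-fold for Gbp6, and no gene had neighbouring arrays in its order that were 2-fold apart, so the order of adjacent arrays is not resolved. Ifng ranged far more widely, at a quantile-normalized signal of 2301 in TOFA, 980.1 in Rap, 116.0 in memory, 4108 in control effector and 6.5 in naive cells. The naive value is under the floor, which puts control effector at least 94.7-fold above naive cells.

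**Figure D2:**
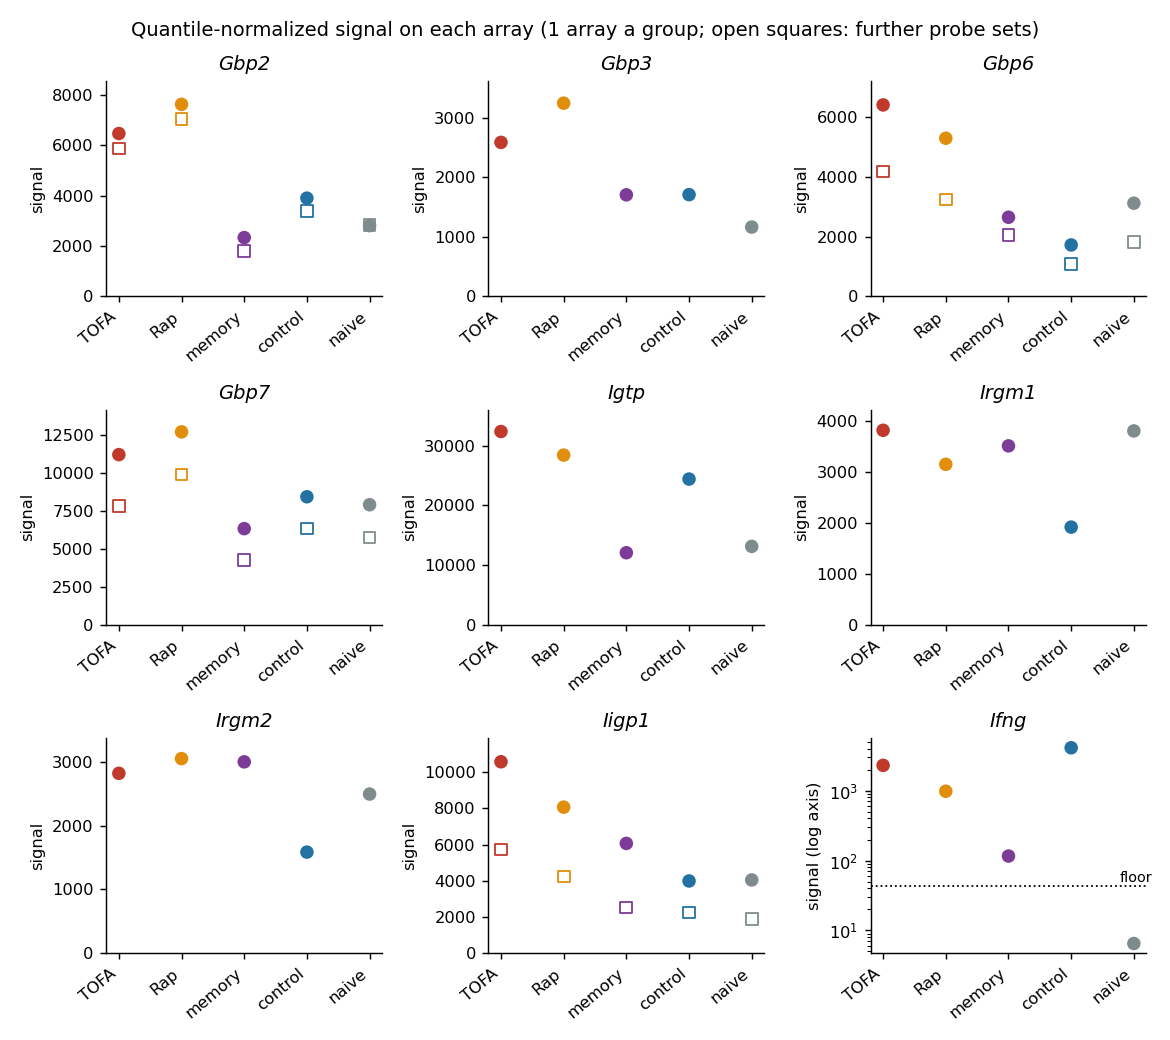
Quantile-normalized signal (arbitrary units, linear axes starting at 0; log axis for Ifng) of the 8 GTPase genes and Ifng on the TOFA, Rap, memory, control effector and naive arrays. Filled circles are the probe set that stands for the gene and open squares any further probe set; the TOFA or the Rap circle is the highest in every GTPase panel, while for Ifng control effector is highest and naive lies under the dotted floor.

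TOFA was set against control effector to see how cells given the carboxylase inhibitor differed from those without it. Of the 8 genes, 2 were at least 2-fold higher and none 2-fold lower, beside 2.47% of 12850 genes compared that were 2-fold higher and 2.15% that were 2-fold lower. All 8 lay above 0, beside 51.3% of all genes above 0 and 48.6% below it. The Rap comparison, which shares the control array, had 2 of the 8 genes 2-fold higher and all 8 above 0, beside 1.82% of 12851 genes 2-fold higher, 3.91% 2-fold lower, 49.5% above 0 and 50.4% below it. Sets of 8 related genes are not independent of each other, so the shares are given as description.

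Among the guanylate binding proteins, Gbp6 stood furthest from control. Its signals were 6397 in TOFA, 5284 in Rap, 2644 in memory, 1718.5 in control effector and 3114 in naive cells. The TOFA and Rap values were the highest and control effector the lowest. Its other probe set, at 4177, 3233, 2049, 1092.5 and 1820.5 in the same order, gave differences of 1.93 for TOFA and 1.57 for Rap against control, close to the 1.90 and 1.62 of the brighter one. These differences lay at percentiles 99.6 (TOFA) and 99.7 (Rap) of all genes compared.

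Gbp2, whose protein is recruited to the Toxoplasma vacuole in mouse cells, had signals of 6468 in TOFA, 7628 in Rap, 2335 in memory, 3901 in control effector and 2810.0 in naive cells. It was 1.66-fold higher in TOFA and 1.96-fold higher in Rap than in control cells. The second probe set, of a type that can match related transcripts (_x_at), gave 1.73-fold and 2.07-fold, so for Rap the 2 probe sets fell on either side of 2-fold, and the brighter one reached 1.01 on the log2 scale with the values as deposited. Gbp3, from the same gene cluster, had signals of 2588 in TOFA, 3247 in Rap, 1707 in memory, 1709.9 in control effector and 1165 in naive cells, which is 1.51-fold and 1.90-fold above control. Gbp7, linked in mouse macrophages to assembly of the NADPH oxidase on vacuoles, had signals of 11237 in TOFA, 12739 in Rap, 6349.8 in memory, 8454 in control effector and 7929.7 in naive cells. It was 1.33-fold higher in TOFA and 1.51-fold higher in Rap than in control cells, and 1.23-fold and 1.56-fold on its other probe set. The 3 clustered genes thus had their highest signal in Rap cells, though none was 2-fold apart between Rap and TOFA.

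Iigp1, the effector GTPase Irga6, had signals of 10574.6 in TOFA, 8070.2 in Rap, 6068 in memory, 3993 in control effector and 4050.2 in naive cells. TOFA was highest, and control effector and naive were almost level. The other probe set gave 2.54-fold for TOFA and 1.88-fold for Rap against control, so the Rap call at 2-fold rests on the brighter probe set. Near-identical relatives share sequence in this family, so signals may include paralogs that these probe sets do not separate.

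Irgm1, a regulatory GTPase that also acts in autophagy, had signals of 3821 in TOFA, 3153 in Rap, 3515 in memory, 1919.6 in control effector and 3809 in naive cells. Control effector was the lowest, and the other 4 arrays lay closer together. Its difference from control was 0.99 for TOFA, just under 2-fold (1.99-fold), and 0.72 for Rap. For TOFA it passed 2-fold with the values as deposited (1.09) and with the arrays of the comparison normalized alone (1.05). Irgm2, another regulatory member, had signals of 2820.4 in TOFA, 3051.5 in Rap, 3000.5 in memory, 1586 in control effector and 2496 in naive cells. Control effector was again the lowest, though its distance from naive (-0.65) was about the probe set SD of 0.64. Irgm2 was 1.78-fold higher in TOFA and 1.92-fold higher in Rap than in control cells. Igtp, the regulatory member also called Irgm3, was bright on every array. Its signals were 32390.2 in TOFA, 28439.8 in Rap, 12082 in memory, 24425 in control effector and 13149 in naive cells, so all 3 effector arrays lay above memory and naive. The difference of Igtp from control was 0.41 for TOFA and 0.22 for Rap, the last being the smallest of the 8 genes and within the probe set SD of 0.38.

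**Figure D3:**
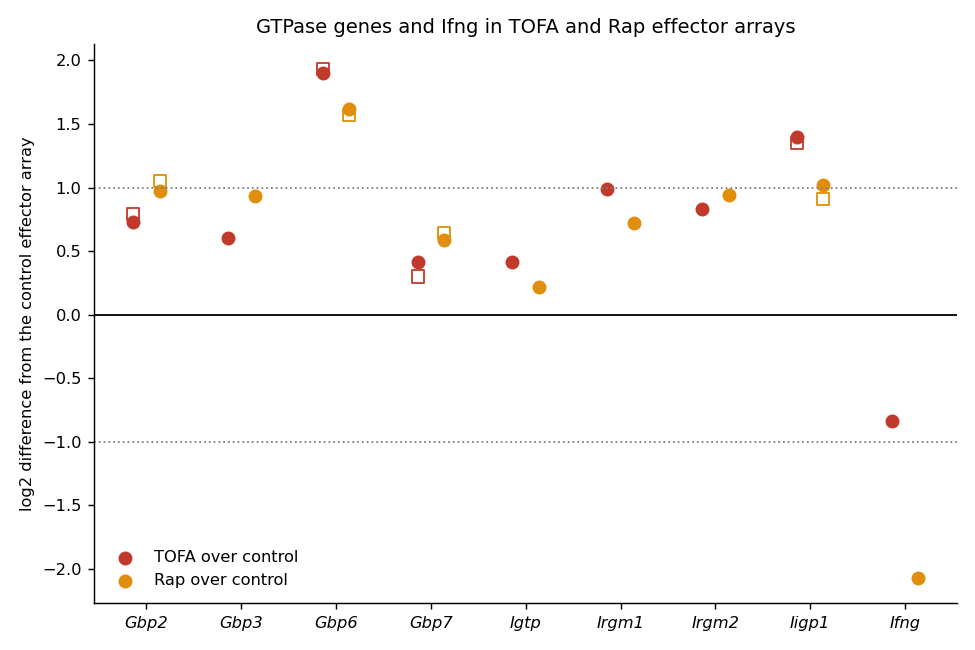
Log2 difference of the TOFA (red) and Rap (orange) arrays from the control effector array for the 8 GTPase genes and Ifng. Circles are the probe set that stands for the gene, squares further probe sets, and dotted lines mark 2-fold; every GTPase point is above 0, up to 1.93 for Gbp6, and both Ifng points are below 0, at -0.84 and -2.07.

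TOFA and Rap cells were also compared with each other. None of the 8 GTPase genes was 2-fold apart, beside 3.28% of 12802 genes 2-fold higher and 1.35% 2-fold lower in TOFA. Differences ran between -0.33 (Gbp3) and 0.39 (Iigp1) with a median of 0.04, against a median of 0.02 over all genes and a probe set SD of 0.34. Gbp2, Gbp3, Gbp7 and Irgm2 lay below 0, while Gbp6, Igtp, Irgm1 and Iigp1 lay above it, beside 52.7% of all genes above 0 and 47.3% below it. Ifng was 2.35-fold higher in TOFA than in Rap cells. With 1 array each, a difference under 2-fold does not show that the GTPases were at the same level.

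The other interferon lists allow the GTPases to be set beside their pathway. Among other GBP and IRG genes, 6 of 20 listed had a probe set of their own and 5 were above the floor. Of these, 3 were at least 2-fold higher in TOFA and 2 in Rap cells than in control. Gbp2b, a guanylate binding protein beside Gbp2 and Gbp3, had signals of 17861 in TOFA, 18865 in Rap, 2967 in memory, 8756 in control effector and 2735 in naive cells, and was 2.04-fold higher in TOFA and 2.15-fold in Rap than in control. Gbp8 was 2.13-fold higher in TOFA and 2.28-fold in Rap, Gm4951 was 2.37-fold and 1.77-fold higher, and the probe set shared by Tgtp1 and Tgtp2 differed by 0.48 and 0.50 on the log2 scale.

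Targets of type I interferon had a larger median difference than the GTPases for TOFA and a smaller one for Rap. Of 22 type I targets compared, 17 were at least 2-fold higher in TOFA than in control cells, with a median of 1.76, and 6 of 20 were 2-fold higher and 1 lower in Rap, with a median of 0.49. The TOFA calls of Rtp4, Cmpk2, Xaf1, Rsad2 and Parp14 rest on the brightest probe set. Their other probe sets had median log2 differences of 0.30, 0.64, 0.87, 0.48 and 0.72 in that order. By the same median, Herc6, Ddx58 and Trim30a also passed 2-fold, and Zbp1 passed it only there. For Ifit3, Mx1 and Mx2 the TOFA differences are lower bounds, with control under the floor. Between TOFA and Rap, 13 of 22 type I targets were 2-fold higher in TOFA, with a median of 1.14. Ifit1, which encodes an antiviral RNA-binding protein, had signals of 478.8 in TOFA, 61.2 in Rap, 327.8 in memory, 81.4 in control effector and 572.5 in naive cells. Interferon-gamma targets outside the GTPases, such as immunoproteasome subunits and antigen transporters, had a median of 0.45 in TOFA and 0.41 in Rap against control, with 1 and 2 of 16 genes 2-fold higher. The chemokine gene Cxcl10 was among them in each case, at least 6.18-fold higher in TOFA and at least 2.83-fold in Rap. The lists differ in how bright their genes are, and whether one list differs from another was not tested.

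**Figure D4:**
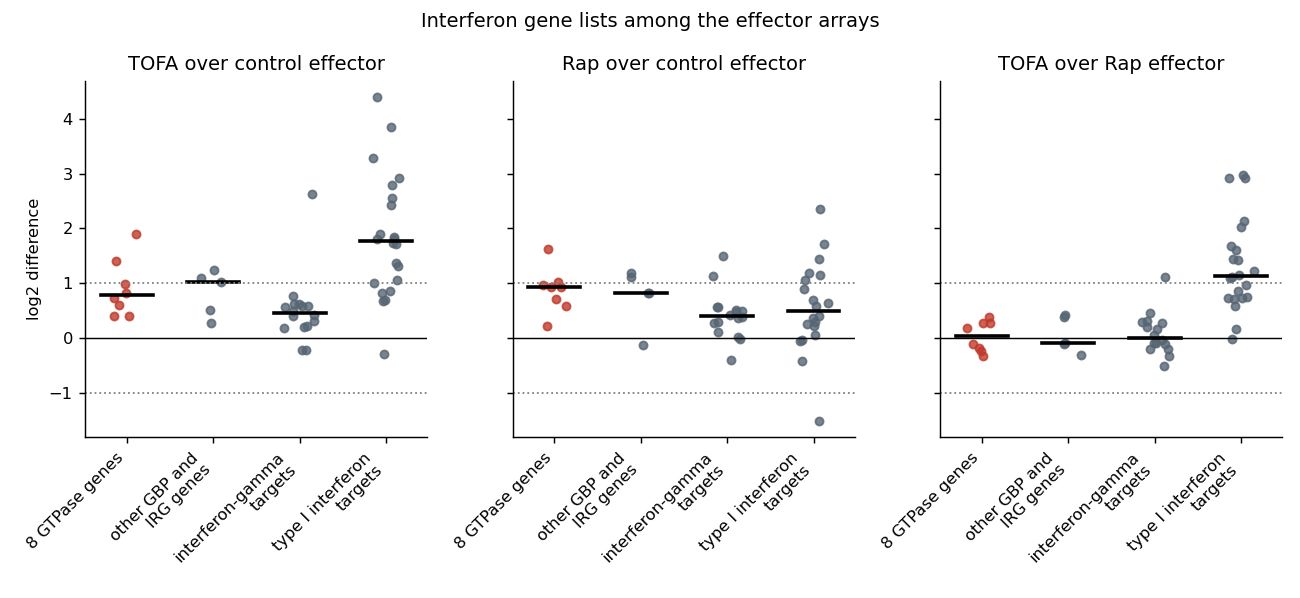
Log2 differences of single genes (points) in 4 lists for TOFA over control effector, Rap over control effector and TOFA over Rap effector, with black bars at list medians and dotted lines at 2-fold. The 8 GTPase genes (red) have medians of 0.78, 0.93 and 0.04 in the 3 panels, against 1.76, 0.49 and 1.14 for type I interferon targets.

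None of the genes of the interferon-gamma receptor and its signalling was 2-fold apart from control in TOFA or Rap cells (0 of 10 compared in each, medians -0.05 and -0.01). Of all genes compared, 2.47% were 2-fold higher and 2.15% 2-fold lower for TOFA, and 1.82% and 3.91% for Rap, so this count does not set the list apart. Irf1, the transcription factor named above, had signals of 5314 in TOFA, 6051 in Rap, 6609 in memory, 3470.5 in control effector and 6844 in naive cells. Like Irgm1 and Irgm2, its lowest array was control effector. Ifngr2, the signalling chain of the receptor, stood at 215.8 in TOFA, 202.0 in Rap, 781.0 in memory, 124.8 in control effector and 1180.5 in naive cells, so all 3 effector arrays were low. Ifngr1, the binding chain, stood at 1231, 1590.0, 4230.1, 1990.1 and 2186 in the same order. In the type I pathway, Irf7, an amplifier of interferon production, was 3.84-fold higher in TOFA and 2.18-fold in Rap than in control cells, and Usp18, which restrains the type I receptor, 6.44-fold and 1.51-fold higher. Of the other interferon genes measured, those for interferon alpha and beta stood between 1.8 and 83.3 on all arrays. Ifnz, interferon zeta, stood at 1749.5 in TOFA, 1864 in Rap, 423.6 in memory, 1656 in control effector and 687.6 in naive cells.

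Control effector cells compared with naive cells showed no common direction among the 8 genes. No gene was 2-fold apart, beside 15.9% of 13070 genes 2-fold higher and 11.4% 2-fold lower. Igtp (0.89), Gbp3 (0.55), Gbp2 (0.47) and Gbp7 (0.09) lay above 0. Irgm1 (-0.99), Gbp6 (-0.86), Irgm2 (-0.65) and Iigp1 (-0.02) lay below it, and the median was 0.04. Of all genes, 52.0% lay above 0 and 48.0% below it. The probe set SD of this comparison was 0.64 over all genes, and the largest gap between probe sets of a member was 0.26. The differences of Gbp7 and Iigp1 were smaller than both, which does not show that these genes were level. With the values as deposited, Igtp passed 2-fold, at 1.04, and 5 of the 8 genes lay above 0. Among type I interferon targets, 11 of 22 were 2-fold lower and 2 were 2-fold higher in control effector cells than in naive ones, with a median of -1.01.

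Between memory and naive cells, none of the 8 genes was 2-fold apart, beside 12.6% of 13082 genes 2-fold higher and 4.14% 2-fold lower. The differences ran between -0.32 for Gbp7 and 0.58 for Iigp1, with a median of -0.12, and the probe set SD was 0.54. Gbp3, Irgm2 and Iigp1 lay above 0 and the other 5 below it, beside 46.4% and 53.5% of all genes. Gbp6 was at -0.24 on its brighter probe set and 0.17 on the other, so its direction is not settled. Against control effector cells, Igtp was 2.02-fold lower in memory cells and was the only one of the 8 past 2-fold, beside 14.1% of 13326 genes 2-fold lower and 14.5% 2-fold higher. Irgm2 (0.92), Irgm1 (0.87), Gbp6 (0.62) and Iigp1 (0.60) were above 0, Gbp2 (-0.74) and Gbp7 (-0.41) below it, and Gbp3 was level, beside 48.4% of all genes above 0 and 51.6% below it. The other probe set of Iigp1 gave only 0.16. Ifng was 35.4-fold lower in memory than in control effector cells. Of the type I targets, 12 were 2-fold higher and 1 lower in memory than in control effector cells, with a median of 1.67.

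The labelled cell type was checked against marker genes. All 9 measured T cell markers were above the floor on every array, with summed signals between 51481 and 78827. Both CD8 T cell markers, Cd8a and Cd8b1, were above it on every array too. Cd8b1 stood at 296.6 in TOFA, 316.0 in Rap, 701.8 in memory, 252.1 in control effector and 540.3 in naive cells. Cd4 stood at 536.0, 524.8, 483.1, 628.0 and 896.9 in the same order. The part of CD8 T cells in these samples was not tested. The memory array also carried markers of other spleen cells: all 14 macrophage and monocyte markers were above the floor, with a summed signal of 127796 in memory, against 359.5 in control effector and 1516 in naive cells. B cell markers summed to 64498 in memory, 2139.9 in control effector and 41049.5 in naive cells. Macrophages and B cells also express GTPases of this family, and the part of these cells in the memory and naive values was not tested; in such bulk samples, fewer cells of a type and less RNA per cell cannot be told apart.

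On the effector arrays, most macrophage, neutrophil and natural killer markers were at or under the floor, while most B cell and dendritic markers were above it. The macrophage markers summed to 604.8 in TOFA, 288.3 in Rap and 359.5 in control cells, with 9, 12 and 11 of the 14 at or under the floor, among them C1qa, C1qb, C1qc, Marco and Vcam1 on all 3 arrays. Neutrophil markers summed to 270.4 in TOFA, 239.2 in Rap and 256.2 in control cells. B cell markers summed to 2564 in TOFA, 2939.9 in Rap and 2139.9 in control cells. Of the 12 measured, only 3, 2 and 3 were at or under the floor, with Cd79a among them on each array. Of the B cell markers compared for Rap over control, 9 of 11 were above 0, with a median of 0.43, beside 49.5% of all genes. Ms4a1, which encodes CD20, was 2.19-fold higher. For TOFA over control, 6 of 10 B cell markers were above 0, with a median of 0.15, beside 51.3% of all genes. Of the macrophage markers compared, 4 of 5 were above 0 for TOFA, with a median of 0.58, and 1 of 3 for Rap. Dendritic cell markers summed to 6228 in TOFA, 6621 in Rap and 6358 in control cells, most of it from the transcription factor gene Batf3, at 4932 in TOFA, 4302 in Rap and 3678 in control cells. Within that list, the MHC class II gene H2-Aa was 2.72-fold higher in Rap than in control cells, and H2-Ab1, another MHC class II gene, was 2.76-fold lower in TOFA and 2.39-fold lower in Rap. Natural killer markers summed to 719.2 in TOFA, 2031.7 in Rap and 957.8 in control cells. Most of each sum came from the transcription factor gene Eomes, at 616.3 in TOFA, 1947.8 in Rap and 837.5 in control cells. The brighter Eomes probe set was 2.33-fold higher in Rap than in control cells, while the weaker one rose by only 0.39 in log2. Ncr1, Klra8 and Tyrobp were at or under the floor on all 3 effector arrays. Klre1 was almost level between Rap and control, at -0.03. Mpeg1, which encodes a pore-forming protein of macrophages, was the macrophage marker furthest apart. Its signal was 154.7 in TOFA, and 25.1 in Rap and 7.5 in control cells, both under the floor. This puts TOFA at least 3.57-fold above each of them. The part of these cells in the effector differences was not tested.

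**Figure D5:**
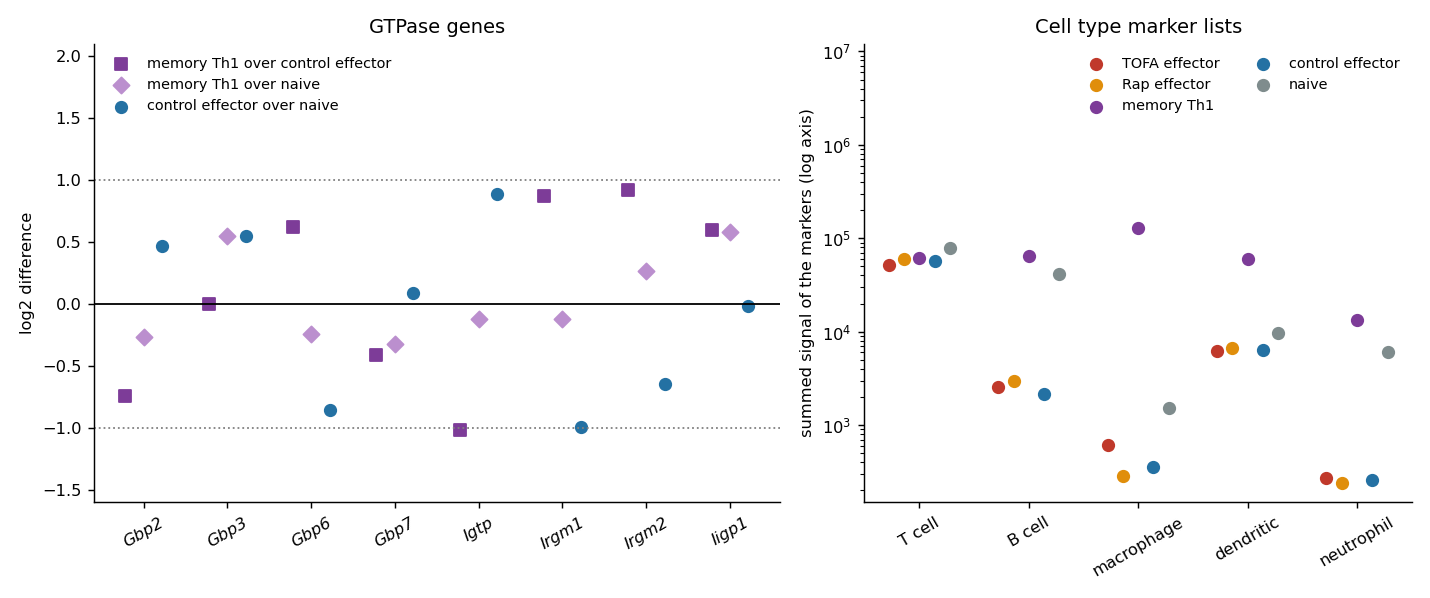
Left, log2 differences of the 8 GTPase genes for memory over control effector, memory over naive and control effector over naive cells, with dotted lines at 2-fold; points scatter on both sides of 0 and only Igtp, at -1.02 for memory over control effector, passes a line. Right, summed signal of cell type markers per array on a log axis; macrophage markers stand at 127796 in memory cells and at 1516 or less on the other arrays.

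By a fixed rule, the 5 genes whose centred log2 profile over the 5 arrays lay nearest to the median profile of the GTPases, among 10256 bright enough to be considered, were Zbtb26, Myo19, Josd2, Dhrs13 and Rexo2. Their root mean square distance lay between 0.077 and 0.137 on the log2 scale. The GTPases themselves lay between 0.210 (Gbp7) and 0.451 (Irgm1) from their own median profile, further than these genes, and Ifng lay at 2.368. Zbtb26, a zinc finger gene, had signals of 364.2 in TOFA, 356.5 in Rap, 203.9 in memory, 216.0 in control effector and 211.2 in naive cells. Gbp7, the nearest of the GTPases, ranked 56 among the genes considered, so many other genes shared so simple a pattern over 5 arrays.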

How the data were processed

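Total RNA was labelled with biotin and hybridised to Affymetrix mouse arrays. The authors deposited a linear intensity (signal) per probe set, made with GCOS and Affymetrix Expression Console per the submitters' processing notes (no version or algorithm given in the sources used here). The mean after trimming 2% was 500.003 on every array, and the medians of the arrays spanned 0.66 in log2.

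After 64 control probe sets were set aside, the 5 arrays were quantile normalized (pandas 2.3.3, numpy 2.4.6) and signals under 43.4, the 40th percentile, were raised to it. A comparison left out genes that were at the floor on each of its arrays. Of 45037 probe sets, 34945 had 1 symbol in the platform's 2016 annotation, 932 several and 9160 none. Each of 18193 genes was read from its brightest probe set by mean log2 signal. Calls were made at 2-fold, and the 6 comparisons have no test. The procedure was tested on simulated data.

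Members, 7 gene lists and 8 marker lists were chosen with earlier results of these data known. The genes named are the members, Ifng, the 5 nearest profiles and up to 3 genes of each list with the largest differences; other genes named were chosen after their values were seen. Alternatives were the values as deposited, normalization of fewer arrays, other floors, an added constant, other probe set choices and other folds.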

Additional observations from a re-analysis of the deposited data

How the results depend on the processing

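The members were above 0 in 8 of 8 cases for TOFA and for Rap against control under each of the 7 alternatives of processing, with single differences between 0.24 and 1.99 for TOFA and between 0.18 and 1.72 for Rap. Ifng was below 0 in both under each of them. The count of members past the fold depended on the fold chosen and on the normalization. At 1.5-fold in either direction it was 6 for TOFA over control and 7 for Rap over control. It was 4 for control effector over naive and 6 for memory over control effector. At 2-fold these counts were 2, 2, 0 and 1, and at 3-fold 1, 1, 0 and 0. The shares of all genes past 1.5-fold and 3-fold were not worked out, so the counts at those folds cannot be set beside them. With the values as deposited it was 3 for TOFA over control (with Irgm1, at 1.09), 3 for Rap over control (with Gbp2, at 1.01) and 1 for control effector over naive, and with the arrays of a comparison normalized alone it was 3 for both TOFA and Rap over control. The floor decided how many of all genes were called but no count of members: when the floor was set to the 20th or the 60th percentile, totals past 2-fold were 2448 and 225 in place of 594 for TOFA over control, 2686 and 286 in place of 737 for Rap over control, 2458 and 239 in place of 593 for TOFA over Rap, 5690.0 and 2615 in place of 3571 for control effector over naive, 4139 and 1322 in place of 2187 for memory over naive, and 5660.0 and 2766 in place of 3805 for memory over control effector. As deposited, 85.5% of the genes past 2-fold were higher for memory over naive, in place of 75.2%, and 64.1% for memory over control effector, in place of 50.8%; there the median of all genes was 0.17 in place of -0.03. The bound on Ifng in control effector over naive cells moves with the floor, and with the floor at the 60th percentile Ifng was not compared between memory and naive cells. No paired analysis was possible because each group had 1 array, and no array could be left out of a group.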

Other observations

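GTPases of this family are loaded onto vacuoles with the help of the ATG conjugation machinery, which attaches ubiquitin-like proteins to membranes. Of 11 measured genes of that machinery, 0 were 2-fold apart in TOFA or in Rap against control effector cells, with medians of 0.01 and -0.12. Of all genes compared, 2.47% were 2-fold higher and 2.15% 2-fold lower for TOFA, and 1.82% and 3.91% for Rap. Beside such shares, a count of 0 among 11 does not set these genes apart. Gabarapl1, one of the ubiquitin-like proteins, had signals of 1293 in TOFA, 910.0 in Rap, 1410.5 in memory, 1286 in control effector and 134.1 in naive cells, and was 9.59-fold higher in control effector and 10.5-fold higher in memory than in naive cells. Map1lc3a, of the same protein family, was 2.23-fold higher in control effector and 5.18-fold higher in memory than in naive cells on its brighter probe set, but its other probe set gave log2 differences of 0.61 and -0.12, so its direction for memory is not settled. The memory array also carried the macrophage markers, whose part in these values was not tested.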
